A study of Rattus norvegicus with 10 samples.

Results

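The chaperones and folding enzymes of the endoplasmic reticulum (ER) were followed across 10 rat lacrimal glands, through every probe set that the array's platform annotation assigns to 1 of 9 genes. These were the chaperones Hspa5, Calr and Canx, the protein disulfide isomerases P4hb, Pdia3, Pdia4 and Pdia6, and the prolyl isomerases Ppib and Fkbp2. All 9 genes were found, with 22 of the 8740 probe sets that are not array controls, and 21 of the 22 passed a filter on dim probe sets. The probe set left out was 1 of 3 for Hspa5, S63521_r_at, which lay at the lower limit of measurement in 3 denervated and 0 control glands and gets no test here. RNA of each gland was hybridised to 1 array, and levels are log2 intensities.

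The denervated class held 5 glands, whose greater superficial petrosal nerve had been cut 7 days earlier, as the labels give it. The control class held 3 contralateral glands of the same day, 1 gland of a normal unoperated animal and 1 gland taken 7 days after a sham operation. Sample titles call the 3 glands contralateral whereas their descriptions put them on the operated side, and the titles were followed. Strain, sex, age and the number of animals are not given in the labels, so p-values reflect only how far these samples scatter, and that scatter may be technical.

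The lacrimal gland secretes proteins and fluid into the tear film, and the greater superficial petrosal nerve carries its parasympathetic supply. Secreted proteins enter the ER lumen unfolded, where Hspa5 (also called BiP) binds exposed hydrophobic stretches and where Calr and its membrane-bound relative Canx hold glycoproteins through their sugar chains. Disulfide isomerases form and rearrange the bonds between cysteines, and prolyl isomerases turn the peptide bond before proline. When unfolded protein accumulates, the unfolded protein response raises transcription of many of these genes, in part through a promoter motif named the ER stress response element (ERSE).

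That element is shown first because its exact form was found in 3 of the 7 promoters with a RefSeq sequence (build GRCr8, 250 bases before to 50 bases after the transcription start). ERSE was searched on both strands as CCAAT, 9 bases of any kind and CCACG. It was present in 22 of 33469 promoters of the same length, or 0.0657%. The 3 matches, written 5′ to 3′ along the motif with its fixed bases in capitals and the 9 spacer bases in lower case, were these.

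Hspa5: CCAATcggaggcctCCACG

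Calr: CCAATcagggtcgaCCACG

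Canx: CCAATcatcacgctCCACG

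In Hspa5 the match began 43 bases before the start and ran with the gene. The Canx match began 230 bases before the start, also with the gene. In Calr it lay on the opposite strand, 232 bases before the start at its far end. The promoters that hold them are given on the strand of the gene, with the match in capitals, to show how far each element lies from the start, 50 bases before the end of each sequence.

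Hspa5, chr3:38452766-38453065, plus strand: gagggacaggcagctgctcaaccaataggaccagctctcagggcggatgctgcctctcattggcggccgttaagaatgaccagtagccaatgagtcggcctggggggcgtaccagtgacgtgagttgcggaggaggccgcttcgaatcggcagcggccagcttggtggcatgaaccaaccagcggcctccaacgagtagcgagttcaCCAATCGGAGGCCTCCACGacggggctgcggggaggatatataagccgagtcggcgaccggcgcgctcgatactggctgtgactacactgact

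Calr, chr19:40213117-40213416, plus strand: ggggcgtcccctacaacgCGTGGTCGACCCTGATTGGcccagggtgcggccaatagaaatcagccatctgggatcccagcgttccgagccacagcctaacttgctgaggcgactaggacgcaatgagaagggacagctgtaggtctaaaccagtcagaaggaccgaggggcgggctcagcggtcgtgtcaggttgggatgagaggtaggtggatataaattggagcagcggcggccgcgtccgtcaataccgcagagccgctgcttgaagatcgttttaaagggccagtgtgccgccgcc

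Canx, chr10:35157808-35158107, minus strand: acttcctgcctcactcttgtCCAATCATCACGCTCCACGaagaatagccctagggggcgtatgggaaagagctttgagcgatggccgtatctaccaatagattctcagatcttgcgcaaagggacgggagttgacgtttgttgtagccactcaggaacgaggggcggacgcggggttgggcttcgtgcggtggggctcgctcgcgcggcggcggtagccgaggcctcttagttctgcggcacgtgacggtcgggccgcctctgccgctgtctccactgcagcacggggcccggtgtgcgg

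**Figure D1:**
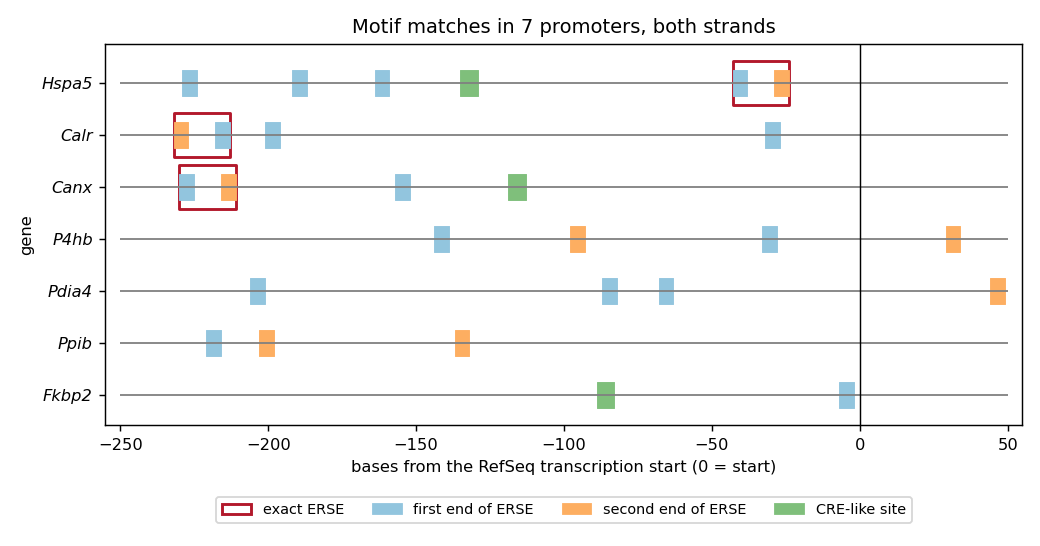
Motif matches on both strands in 7 promoters, by distance in bases from the RefSeq transcription start. Open boxes mark exact ERSE matches, which occur in Hspa5, Calr and Canx; filled boxes mark its 5-base ends and a CRE-like site, and each promoter holds at least 1 filled box.

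The promoters of P4hb, Pdia4, Ppib and Fkbp2 held no exact ERSE in this window. Each of the 7 promoters held the first end of ERSE, CCAAT, against 37.5% of all promoters, and 6 held the second, CCACG, against 31.6%. Both ends were also counted where they form part of a whole ERSE. TGACGT, the core of sites bound by cyclic AMP and stress response factors, was found for Canx, Fkbp2 and Hspa5, 3 of 7 promoters against 7.94% of all. ERSE-II (ATTGG, 1 base of any kind and CCACG) and the element TGACGTGG were found in 0 of the 7, against 0.0508% and 0.595% of all promoters. These are matches of letters only.

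The first comparison was between the denervated and the control class. Most of the folding genes had lower mean levels in denervated glands, with a median log2 difference of -0.67 over the 21 probe sets, and the largest differences were those of Calr, Hspa5 and P4hb. Of the 21 probe sets 19 were lower, or 90.5%, against 55.4% of all 6118 tested, whose median was -0.08. At an unadjusted p under 0.05 by limma, 12 of 21 were lower, a share of 57.1% against 4.66% of all tested probe sets, and 0 were higher, against 5.02% of all. Counting 1 probe set per gene, the brightest, 9 of 9 genes were lower and 5 had an unadjusted p under 0.05. The members were chosen with earlier results of these data known, and the 21 probe sets measure only 9 genes. Their shares beside those of all probe sets, here and below, are therefore descriptions and not a test.

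No member passed after adjustment: 0 of 21 had a limma adjusted p under 0.05, as did 0% of all tested probe sets, and the members' adjusted p ran from 0.434 to 0.996. Without denervated 2 and 5, chosen after the data were seen, the median was -0.58 and the count at an unadjusted p under 0.05 was 3. In bulk tissue, fewer cells of a type and less RNA per cell cannot be told apart.

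**Figure D2:**
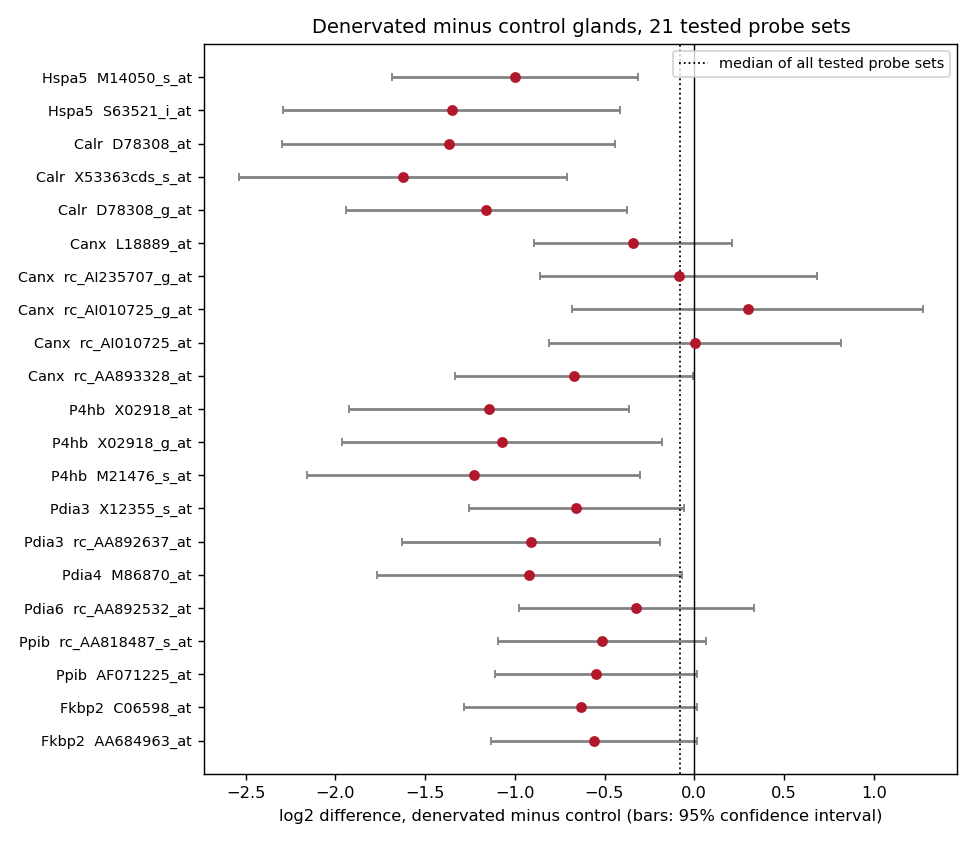
Log2 difference (denervated minus control) of each of the 21 tested probe sets, with its 95% confidence interval from limma; the dotted line is the median of all tested probe sets, -0.08. The Calr, Hspa5 and P4hb intervals lie below 0, and 3 Canx probe sets sit near it or above.

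Hspa5 is the main lumenal Hsp70 chaperone and the classic readout of ER folding load. Its brightest probe set, M14050_s_at, had log2 intensities of 14.73, 13.67, 14.002, 14.38 and 13.90 in denervated glands 1 to 5. In control glands they were 14.90, 14.89 and 16.15 (contralateral 1 to 3), 14.28 (unoperated) and 15.43 (sham). The highest denervated gland lay below all 3 contralateral glands and the sham gland, but 2 denervated glands lay above the unoperated gland. Mean levels were 14.14 ± 0.42 in denervated and 15.13 ± 0.70 in control glands (SD, n = 5 each). The log2 difference was -0.997 ± 0.320 (SE), 0.501 of the control level (limma adjusted p = 0.435). The other tested probe set, S63521_i_at, differed by -1.35 ± 0.44, and the 4 denervated glands other than denervated 4 lay below all controls there.

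Calr binds calcium in the ER lumen and chaperones glycoproteins, and its 3 probe sets had the largest differences as a gene. At D78308_at, denervated glands 1 to 5 had log2 intensities of 16.93, 15.52, 16.00, 15.77 and 14.47. Contralateral glands had 17.49, 17.09 and 18.09, the unoperated gland 16.07 and the sham gland 16.79. Denervated 1 was the exception, within the range of the controls, while the other 4 lay below all 5 of them.

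The mean of this probe set was 15.74 ± 0.89 in denervated and 17.11 ± 0.76 in control glands (SD, n = 5 each), a log2 difference of -1.37 ± 0.43 (SE) and 0.387 of the control level. X53363cds_s_at differed by -1.62 ± 0.43, 0.325 of the control level (95% interval of the log2 difference -2.54 to -0.71), and D78308_g_at by -1.16 ± 0.37. X53363cds_s_at ranked 24th by p of the 6118 probe sets, with a limma adjusted p of 0.434. Denervated 5 was the lowest gland at each of the 3 probe sets.

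Canx is the membrane-anchored counterpart of Calr, and its 5 probe sets gave differing results. L18889_at, the brightest, had 13.76, 13.47, 13.58, 13.43 and 12.85 in denervated glands 1 to 5. It had 13.90, 13.86 and 14.41 in contralateral glands, 13.17 in the unoperated and 13.48 in the sham gland. Its log2 difference was -0.34 ± 0.26 (SE), with a 95% interval of -0.90 to 0.21 that holds 0. At rc_AA893328_at the difference was -0.67 ± 0.31, while rc_AI235707_g_at, rc_AI010725_at and rc_AI010725_g_at gave -0.09, 0.00 and 0.30. At these 3 the unoperated gland was the lowest of the 10, with 11.53, 11.38 and 10.85, and the groups overlapped widely.

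Calr and Canx share a fold and a lectin function, and their ratio within each gland is given as a description with no test, since the pair was chosen after the values were seen. The log2 ratio of Calr to Canx, over the 3 and 5 tested probe sets, was 3.19, 1.87, 1.96, 1.94 and 1.02 in denervated glands 1 to 5. In control glands it was 3.47, 2.61 and 3.82 (contralateral 1 to 3), 3.52 (unoperated) and 2.68 (sham). Apart from denervated 1, the denervated glands lay below all controls. The mean ratio was 2.00 ± 0.78 in denervated and 3.22 ± 0.54 in control glands (SD, n = 5 each). With D78308_at and L18889_at alone it was 2.32 ± 0.57 in denervated and 3.34 ± 0.31 in control glands.

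**Figure D3:**
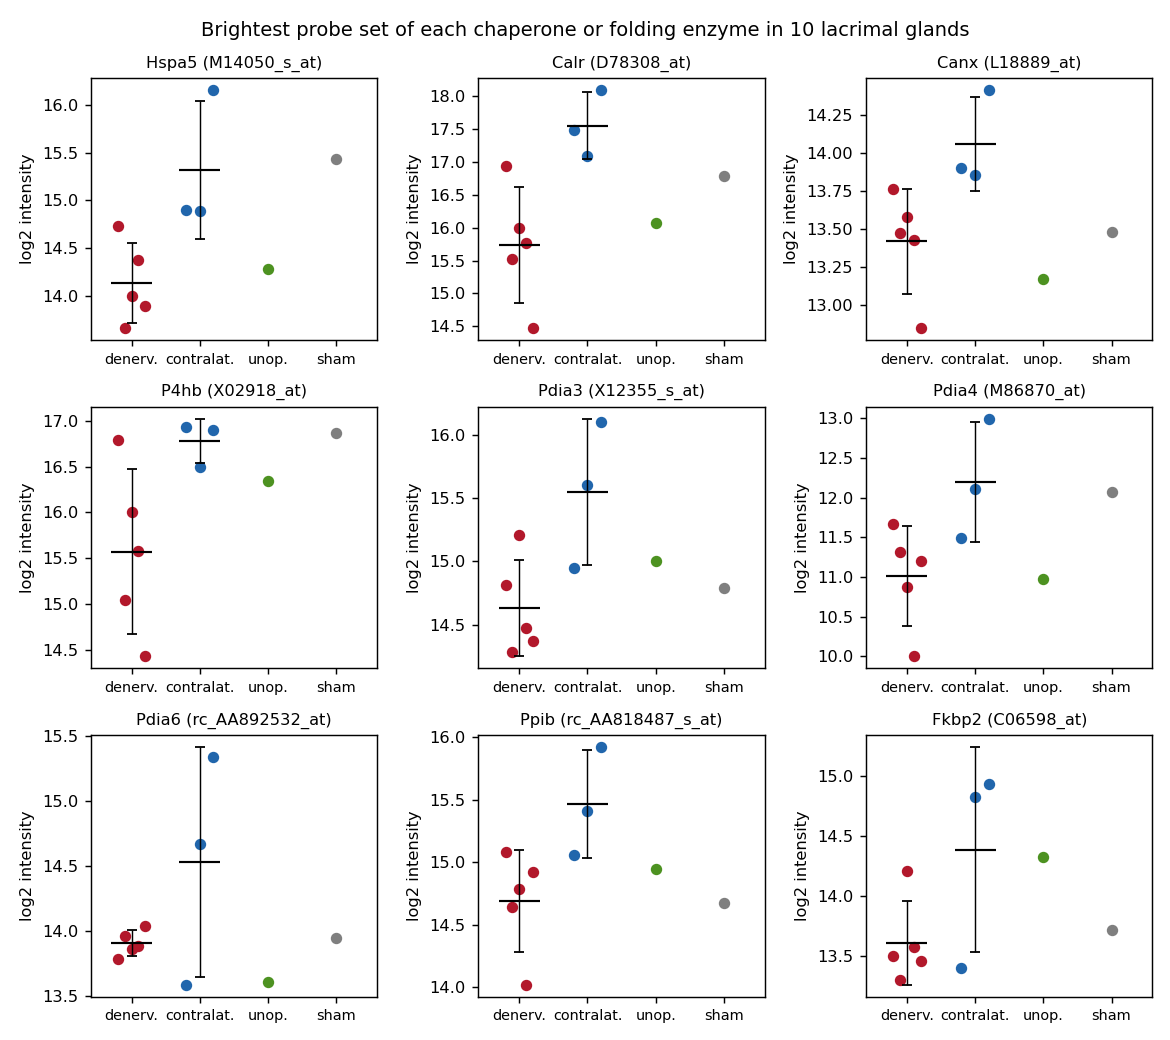
Log2 intensity of the brightest probe set of each of the 9 genes, with 5 denervated, 3 contralateral, 1 unoperated and 1 sham gland as points; bars are the mean and SD of the groups with over 1 gland. Calr, Hspa5 and P4hb show most denervated glands below the controls, and Pdia6 shows 5 denervated glands between 13.79 and 14.04 amid wider controls.

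P4hb, the archetypal protein disulfide isomerase and also a subunit of prolyl 4-hydroxylase, was lower in 4 of 5 denervated glands. At X02918_at the denervated glands 1 to 5 had 16.79, 15.05, 16.00, 15.58 and 14.42, and the contralateral glands 16.94, 16.50 and 16.91. The unoperated and sham glands had 16.35 and 16.87. Control glands thus spanned a narrow range, denervated 1 lay inside it, and denervated 2 to 5 lay below it. The log2 difference was -1.14 ± 0.36 (SE), 0.453 of the control level (limma adjusted p = 0.435).

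X02918_g_at and M21476_s_at of P4hb gave -1.07 ± 0.42 and -1.23 ± 0.43, with the same 4 denervated glands below all controls. Without denervated 1, the 3 P4hb probe sets differed by -1.45, -1.49 and -1.65, each with a limma adjusted p under 0.05 (0.0472, 0.0427 and 0.0362). They were the members that passed in that fit, in which 70 of 6118 probe sets passed. Denervated 1 was the denervated gland inside the control range at these probe sets, so leaving it out had to widen the difference. Of 210 values of member probe sets against control with 1 gland left out, these 3 were the ones that passed. They are therefore not read as significance for P4hb.

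Pdia3 (also called ERp57) works with Calr and Canx on glycoproteins. Its dimmer probe set, rc_AA892637_at, had 9.51, 9.61, 10.003, 9.81 and 9.55 in denervated glands 1 to 5. Contralateral glands had 10.38, 10.48 and 11.16, the unoperated gland 10.44 and the sham gland 10.55. This was the 1 member probe set of 21, or 4.76%, at which all 5 denervated glands lay below all 5 controls, against 1.03% of all tested probe sets. Its log2 difference was -0.91 ± 0.34 (SE), 0.533 of the control level, with a limma adjusted p of 0.448. The brighter probe set, X12355_s_at, had means of 14.63 ± 0.38 in denervated and 15.29 ± 0.55 in control glands (SD, n = 5 each), a difference of -0.66 ± 0.28, and its groups overlapped.

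Pdia4 (ERp72) is a larger lumenal isomerase with additional active domains. Its probe set M86870_at had 11.67, 11.31, 10.87, 9.997 and 11.20 in denervated glands 1 to 5, against 11.49, 12.10 and 12.99 in contralateral glands. The unoperated and sham glands had 10.97 and 12.07. Denervated 4 was the lowest gland and contralateral 3 the highest, and the log2 difference was -0.92 ± 0.40 (SE, limma adjusted p = 0.478).

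Pdia6 (P5), which associates with Hspa5, gave the smallest difference among the isomerases, -0.32 ± 0.31. Its denervated glands spanned 13.79 to 14.04, with an SD of 0.10, and its control glands 13.59 to 15.34, with an SD of 0.76. Of the 3 glands of the control class other than contralateral 2 and 3, the sham gland, with 13.95, lay within the denervated range. Contralateral 1 and the unoperated gland, with 13.59 and 13.61, lay below all denervated glands.

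The prolyl isomerases were measured by 4 probe sets. Ppib, cyclophilin B, is the lumenal cyclophilin that assists collagen and other secreted proteins. Its probe set rc_AA818487_s_at had 15.08, 14.64, 14.78, 14.02 and 14.92 in denervated glands 1 to 5. Contralateral glands had 15.06, 15.41 and 15.92, the unoperated gland 14.95 and the sham gland 14.67. The classes overlapped, and the differences of its probe sets were -0.51 ± 0.27 and -0.55 ± 0.26 (SE), each with a 95% interval that holds 0.

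Fkbp2, a small FK506-binding protein of the ER, differed by -0.63 ± 0.30 at C06598_at and -0.56 ± 0.27 at AA684963_at. At C06598_at the denervated glands spanned 13.30 to 14.21 and the control glands 13.40 to 14.93. Contralateral 1 lay among the denervated glands at both probe sets. Limma adjusted p was 0.522 for both.

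Denervated glands were next compared with the 3 contralateral glands alone. All 21 probe sets were lower in denervated glands, 100% against 50.5% of all tested, with a median log2 difference of -0.92. At an unadjusted p under 0.05 by limma, 16 of 21 were lower and 0 higher, against 3.01% and 4.15% of all tested. For 7 of 21, or 33.3%, the 5 denervated glands lay below all 3 contralateral glands, against 2.55% of all tested. The 7 were the 3 probe sets of Calr, M14050_s_at of Hspa5, L18889_at and rc_AA893328_at of Canx, and rc_AA892637_at of Pdia3.

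Calr had the largest differences here too, -1.82 ± 0.46 at D78308_at and -2.03 ± 0.47 (SE) at X53363cds_s_at, 0.283 and 0.246 of the contralateral level. X53363cds_s_at had mean levels of 14.03 ± 0.87 in denervated (SD, n = 5) and 16.06 ± 0.78 in contralateral glands (SD, n = 3). Hspa5 differed by -1.18 ± 0.37, Pdia4 by -1.19 ± 0.45 and P4hb by -1.21 ± 0.44 at its brightest probe set. The differences of the brightest probe sets were -0.92 ± 0.30 for Pdia3, -0.78 ± 0.36 for Fkbp2, -0.77 ± 0.29 for Ppib, -0.64 ± 0.26 for Canx and -0.62 ± 0.33 for Pdia6. After adjustment 0 of 21 passed by limma, as did 0% of all tested probe sets, and the members' adjusted p ran from 0.634 to 0.957.

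Contralateral 3 carried much of this comparison. It was the highest of the 10 glands at 15 of 21 probe sets, and without it the count at an unadjusted p under 0.05 was 5 and the median -0.69. Both comparisons use the same 3 contralateral glands.

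Against the unoperated and sham glands, taken as 1 class, the denervated glands were lower at 16 of 21 probe sets, or 76.2% against 59.2% of all tested, with a median of -0.51. At an unadjusted p under 0.05 by limma, 0 were lower and 1 was higher, a Canx probe set (rc_AI010725_g_at, 1.15 ± 0.52), against 4.51% of all tested probe sets lower and 3.38% higher. P4hb differed by -1.04 ± 0.50 and Calr by -0.69 ± 0.53 (SE) at their brightest probe sets, while Canx and Pdia6 differed by 0.09 and 0.13. After adjustment 0 of 21 passed, with adjusted p from 0.616 to 0.934.

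The contralateral glands were higher than the unoperated and sham glands at 20 of 21 probe sets, with a median log2 difference of 0.52, whereas 59.7% of all tested probe sets were lower. Calr differed by 1.13 ± 0.57, Pdia6 by 0.75 ± 0.41 and Canx by 0.73 ± 0.33 (SE) at their brightest probe sets. P4hb differed by 0.17 ± 0.55. At an unadjusted p under 0.05 by limma 2 members were higher, both Canx probe sets, and 0 lower, against 1.52% and 3.37% of all tested, and 0 passed after adjustment, the smallest adjusted p being 0.967. The unoperated and sham glands are 1 gland each and differed from one another. Their mean deviations from the control mean, over the 21 probe sets on the log2 scale, were -0.67 for the unoperated and -0.0035 for the sham gland. Without the unoperated gland the median of contralateral minus sham was 0.13, and without the sham gland it was 0.88 against the unoperated gland alone. For denervated glands the same medians were -0.85 against sham alone and -0.31 against the unoperated gland alone.

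The glands thus formed a graded series in the level of these transcripts. Mean deviations from the control mean were -0.37, -0.94, -0.56, -0.72 and -1.18 in denervated glands 1 to 5. They were -0.16, 0.13 and 0.70 in contralateral glands 1 to 3. The unoperated gland lay between denervated 4 and denervated 3, so the classes overlap in this mean. Denervated 5 was the lowest of 10 glands at 8 probe sets and denervated 2 at 5.

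**Figure D4:**
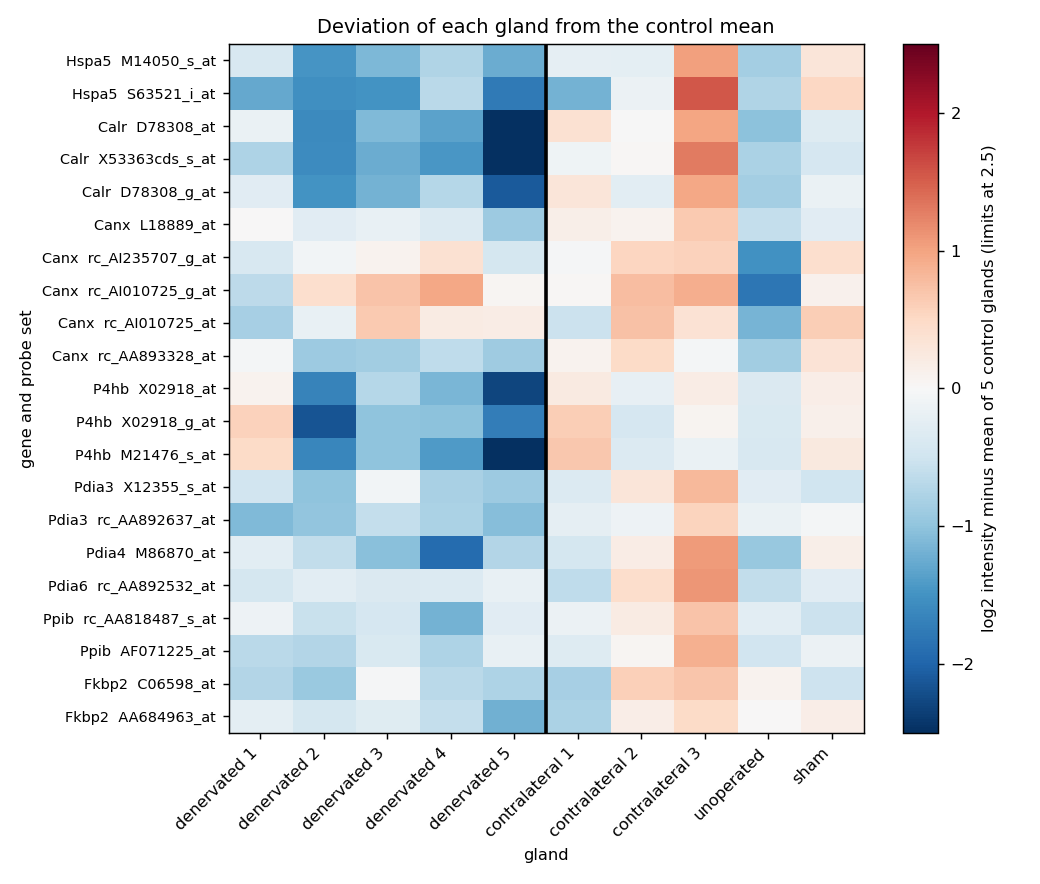
Log2 intensity of each gland minus the mean of the 5 control glands, for 21 probe sets, with the 5 denervated glands left of the line. Denervated 2 and 5 are darkest for Calr and P4hb, contralateral 3 is high at most rows, and the unoperated gland is low at most rows.

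The 9 genes varied together across glands. Over their brightest probe sets, the 36 pairwise Pearson correlations across 10 glands were all above 0, with a median of 0.69 and a range of 0.17 to 0.92. With the mean of each class removed, the median was 0.56 and 35 of 36 were above 0. Calr and P4hb gave 0.92 and Calr and Canx 0.91, while P4hb and Pdia6 gave the lowest, 0.17. These values are descriptive, since all genes share the same 10 arrays and their scaling.

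The glands also differed in secretory transcripts, in a way that cut across the labels. Dnase1, a secreted nuclease, had log2 intensities of 18.33 in denervated 1, 19.24 in contralateral 1 and 19.46 in the sham gland, against 9.57 to 13.90 in the other 7 glands. The secretoglobin Scgb2a1 was at the lower limit of measurement in those 3 glands and in denervated 2 and 5, and had 16.18 to 18.46 in the other 5. Within the 3 Dnase1-rich glands, denervated 1 minus the mean of contralateral 1 and sham gave a median of -0.20 over the members, with 15 of 21 lower, against 49.5% of all tested. Among the 5 Scgb2a1-rich glands, denervated 3 and 4 minus contralateral 2, contralateral 3 and unoperated gave a median of -0.79, with 18 of 21 lower, against 55.3% of all tested. In the second set 10 of 21 probe sets had both denervated glands below all 3 controls, against 15.1% of all tested. Denervated 2 and 5 had no control gland of their kind, so their low levels and their kind cannot be told apart.

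In the Dnase1-rich glands the P4hb level at X02918_at was 16.79 in denervated 1, and 16.94 in contralateral 1 and 16.87 in the sham gland, a difference of -0.11. Among the Scgb2a1-rich glands it was -0.79, with both denervated glands below all 3 controls at each P4hb probe set. Pdia4, with -0.11 and -1.59, and Ppib, with 0.21 and -1.03 at rc_AA818487_s_at, also gave larger negative values in the second set, and Calr at D78308_at gave -0.20 and -1.20. Pdia3 at rc_AA892637_at gave -0.96 and -0.79. Canx went the other way at rc_AI235707_g_at (-0.59 and 0.36), rc_AI010725_g_at (-0.73 and 0.88) and rc_AI010725_at (-0.87 and 0.45). With the 3 Dnase1-rich glands left out together, an alternative added after the data were seen, the median of denervated minus control was -0.98, and 14 of 21 had an unadjusted p under 0.05. Which differences between glands the sets reflect was not tested.

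Other genes of the ER, and chaperones outside it, were taken from 4 lists, to be read beside 55.4% of all tested probe sets lower in sign, and 4.66% lower and 5.02% higher with an unadjusted p under 0.05. Differences between lists, and between a list and the members, were not tested. Of 44 further ER folding genes listed, 14 were measured, and 11 of these were lower in denervated glands, with a median of -0.49. By limma 5 were lower and 0 higher with an unadjusted p under 0.05. Hsp90b1, the ER form of Hsp90, differed by -0.99 ± 0.37 (SE). Ero1b, the oxidase that recharges disulfide isomerases, differed by -1.04 ± 0.35, Fkbp11 by -0.81 ± 0.29 and Lman1, a cargo receptor for glycoproteins leaving the ER, by -0.96 ± 0.41. P4ha1, which pairs with P4hb in prolyl 4-hydroxylase, differed by -0.78 ± 0.33. Above 0 were the collagen chaperone Serpinh1 (1.48 ± 0.90), the lysyl hydroxylase Plod1 (0.93 ± 0.71) and Hyou1 (0.09 ± 0.55), with Serpinh1 at the lower limit of measurement in some glands of both classes. After adjustment 0 of 14 passed.

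Beyond the members, 18 genes had an exact ERSE in the promoter and 3 of these were measured. Ero1b and Hsp90b1 were among them, with the values above, and Hnrnpa3, an RNA-binding protein, differed by 0.83 ± 0.29.

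Sensors and effectors of the unfolded protein response and of ER-associated degradation made up the next list. Of 12 measured of 35 listed, 9 were lower with a median of -0.23, and at an unadjusted p under 0.05 by limma 2 were lower and 1 higher. The 2 were Ube2g2, a ubiquitin-conjugating enzyme of ER-associated degradation (-0.59 ± 0.25), and Tmbim6, an ER membrane protein (-0.58 ± 0.25). The higher 1 was the transcription factor Cebpb (1.01 ± 0.36). Smaller differences were -0.28 ± 0.21 for Eif2s1, the translation factor that the response phosphorylates, -0.42 ± 0.33 for Asns and -0.30 ± 0.26 for the segregase Vcp. Ddit3 (also called CHOP), which the response induces under lasting stress, differed by -0.12 ± 0.66, Atf3 by 0.37 ± 0.38 and Trib3 by 0.20 ± 0.69. Ddit3 and Trib3 were at the lower limit of measurement in some glands of both classes. Xbp1 and Atf4 were not analysed here.

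Genes of translocation into the ER and of N-glycosylation, the step before folding, were lower for 11 of 14 measured, 10 of them with an unadjusted p under 0.05, and their median was -0.61. The ribosome-binding protein Rrbp1 (-1.58 ± 0.30), the ER membrane transporter Slc35b1 (-1.08 ± 0.24), Dad1 and Ddost of the oligosaccharyltransferase (-1.05 ± 0.30 and -0.81 ± 0.27) and Ssr4 of the translocon (-0.65 ± 0.22) had the smallest p. Sec62 (0.07 ± 0.27), Man1a1 (0.05 ± 0.42) and Man2a1 (0.74 ± 0.52) were above 0. After adjustment 0 passed.

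Chaperones of the cytosol and mitochondria were the fourth list. Of 22 tested, 7 were lower and 15 higher, with a median of 0.12, and at an unadjusted p under 0.05 by limma 0 were lower and 0 higher. Cytosolic Fkbp1a, a relative of Fkbp2, differed by 0.19 ± 0.32 (SE). Hsph1 differed by -1.11 ± 0.68, St13 by -0.37 ± 0.23, Dnaja1 by -0.31 ± 0.24, Hspb1 by -0.45 ± 0.53 and mitochondrial Hspa9 by -0.26 ± 0.32. On the other side were Cryab (0.55 ± 0.30), Ppid (0.82 ± 0.52) and mitochondrial Trap1 (0.51 ± 0.35).

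**Figure D5:**
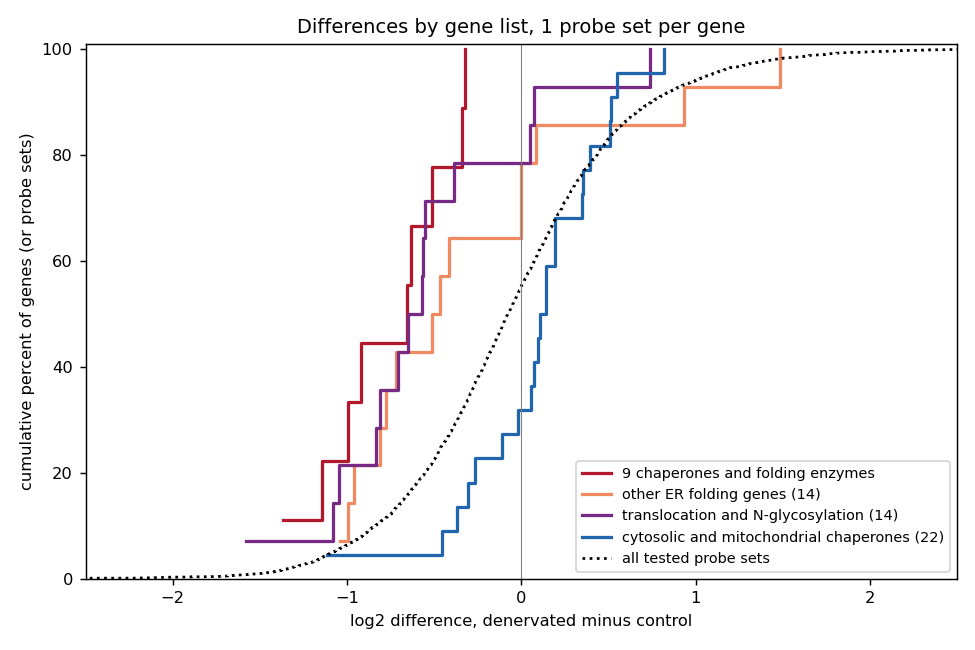
Cumulative percent of genes by log2 difference (denervated minus control), 1 probe set per gene, for the 9 members, 3 lists of related genes and all tested probe sets. The curves of the 9 members, the other ER folding genes and the translocation genes lie left of the dotted curve of all probe sets over most of their length, and that of cytosolic and mitochondrial chaperones does not.

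Several markers of other cell types were higher in the same comparison, to be read against the same shares of all tested probe sets. Of 13 tested macrophage and monocyte markers 11 were higher in denervated glands, among them Lyz2, which the acinar list below also counts. At an unadjusted p under 0.05 by limma 5 were higher and 0 lower. The summed linear intensity of the 14 on the array ran from 89694 to 370318 in denervated and from 57863 to 153328 in control glands. Such sums are carried by the brightest genes, here Apoe, with log2 intensities of 15.28 to 18.12 in denervated and 14.43 to 16.19 in control glands. Among 23 genes of matrix and fibroblasts, 17 were higher, and at that unadjusted p 10 were higher and 1 lower (Eln, -1.13 ± 0.43, SE). Their sums were 157042 to 661310 in denervated and 121531 to 209218 in control glands. Among 12 genes of myoepithelium and smooth muscle, 10 were higher, and at that p 6 were higher and 0 lower. Their sums were 38797 to 147166 in denervated and 32460 to 55013 in control glands. Of 6 tested duct genes 4 were higher, and at that p 1 was higher (Krt19, 1.35 ± 0.52) and 1 lower (Klk1, -2.12 ± 0.48, SE). Klk1 lay near the lower limit in denervated glands. Adipocyte genes were higher for 5 of 6, skeletal muscle genes for 4 of 6 and nerve genes for 4 of 8. At that p 2, 0 and 1 of these were higher and 0 lower. Blood cell genes, 4 on the array, summed to 234434 in denervated 2 and 263451 in denervated 5, against 20058 to 119270 in control glands and 33148 to 41148 in the other denervated glands. Denervated 2 and 5 were also the 2 glands with the lowest chaperone levels. The same 2 glands had the highest sums for macrophage, matrix, myoepithelial, duct and adipocyte genes, so blood is not singled out. The highest blood sum of the control glands, 119270, was that of contralateral 3, the gland with the highest chaperone levels. The part of these cells in the chaperone differences was not tested.

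Of 15 tested genes of lacrimal acinar cells 7 were lower and 8 higher, and with an unadjusted p under 0.05 by limma 0 were lower and 3 higher. The sums of the 16 acinar genes on the array ran from 314866 to 524933 in denervated and from 247850 to 838829 in control glands. Being linear, they are carried by the brightest genes. The highest were those of the Dnase1-rich glands, 838829 in the sham gland and 819029 in contralateral 1. Dnase1 alone had log2 intensities of 19.46 and 19.24 there, so these sums do not measure acinar content. Of this list, the water channel Aqp5 was at 13.12 to 14.07 in denervated and 12.61 to 14.21 in control glands. Among the 7 lower genes, Bhlha15 differed by -1.30 ± 0.64 (SE, limma unadjusted p = 0.062), and by -1.67 against contralateral glands. Its levels overlapped, with 12.12 to 16.04 in denervated and 14.67 to 16.65 in control glands. Dnase1 (-2.07 ± 1.72) and Scgb2a1 were also lower in mean, and Lcn2 was higher (2.17 ± 1.29). Rab3d, a GTPase of secretory granules, was at 11.60 to 12.83 in denervated and 12.85 to 12.92 in control glands. The Rab3d ranges do not overlap, which held for 1.03% of all tested probe sets in this direction, and its log2 difference was -0.53 ± 0.26 (SE, limma adjusted p = 0.522). Of the 3 genes higher with an unadjusted p under 0.05 by limma, Dmbt1, a secreted scavenger receptor protein, differed by 1.53 ± 0.36. The others were Cst3, a secreted protease inhibitor (1.26 ± 0.35), and Slc12a2, an ion cotransporter of fluid secretion (0.87 ± 0.35). Dmbt1 had 14.99 to 16.87 in denervated and 13.82 to 14.87 in control glands, without overlap, as for 0.637% of all tested probe sets in that direction. Of 20 plasma and B cell markers listed, 2 were on the array, with sums of 1584 to 5974 in denervated and 1296 to 3148 in control glands. In every list used here, 0 genes were at the lower limit in all 10 glands. The 3′ to 5′ log2 ratios of beta-actin, a measure of RNA integrity, were 0.19 to 0.95 in denervated and 0.61 to 1.14 in control glands (exact permutation p = 0.389), and their part was not tested.

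The 8 genes most like the mean of the members' standardised levels, out of 3612, were ranked by Pearson r across the 10 glands. They were Ddost (0.94), Hsp90b1 (0.91), Rpn2 (0.91), Hagh (0.88), Erp29 (0.87), Ica1 (0.86), Tmed10 (0.86) and Insig1 (0.84). Ddost and Rpn2 are subunits of the oligosaccharyltransferase, Erp29 is a lumenal ER protein and Tmed10 a cargo receptor of the early secretory pathway. Insig1 is an ER membrane regulator of sterol synthesis, Hagh a glyoxalase and Ica1 a protein of secretory vesicles. Within the 5 denervated glands alone r was 0.97 for Ddost and 0.98 for Hagh, but 0.49 for Erp29 and 0.53 for Insig1. The genes were picked for this likeness, and all 8 were lower in denervated than in control glands, by -1.32 to -0.51.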

How the data were processed

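The members and gene lists were chosen with earlier results of these data known. Deposited values are linear intensities, 1 per probe set, of an Affymetrix rat array. The authors had scaled the arrays, as the deposited values show: means with 2% trimmed at each end ran from 2505 to 2507. The scaling software was not given in the sources used here.

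A lower limit of 156.2, the 20th percentile of the whole table, replaced dimmer values before log2 was taken. Of 8799 probe sets, 59 array controls were left out, and 6118 of the other 8740 with a mean log2 above the 30th percentile were tested. Gene symbols came from the platform annotation (7006 probe sets with 1 symbol, 308 with several, 1426 with none). Promoter sequences are from RefSeq, GRCr8.

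Differences were tested with limma 3.58.1 in R 4.3.3 (lmFit, eBayes with a variance trend), two-sided, Benjamini-Hochberg over all tested probe sets, threshold 0.05. Denervated and control glands were 2 classes in 1 fit. A second fit had 3 classes: denervated, contralateral, and unoperated with sham. The 3′ to 5′ ratios used exact permutation tests, two-sided. Precision is limited by the 10 arrays, with a median standard error of denervated minus control of 0.50 on the log2 scale. Correlations between arrays ran from 0.757 to 0.925.

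Named genes were all member probe sets, up to 5 lower and 3 higher genes of each ER or chaperone list by unadjusted p, a few fixed genes, and the 8 most like the members. Alternatives changed the scaling, lower limit, filter, variance trend and array weights, took 1 probe set per gene, blocked on gland number, or left out each gland or a set of arrays that stood apart. Figures were drawn with matplotlib 3.10.9.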

Additional observations from a re-analysis of the deposited data

Results flagged for a closer look

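Among 42 groups of 5 log2 values (21 member probe sets, in denervated and in control glands), 2 had 1 gland far from the rest by Dixon's test, where chance flags about 1 in 20. The unoperated gland was low for Canx at rc_AI235707_g_at, with 11.53, its gap being 0.714 of the range of the 5 control glands. Contralateral 3 was high for Pdia3 at rc_AA892637_at, with 11.16 and a gap of 0.791 of the range. Both were in the control class.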

How the results depend on the processing

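Over 252 values of member probe sets under other settings, denervated minus control kept its direction and its side of the threshold in 245. Denervated minus contralateral kept both in 252. Changes of the lower limit, filter and variance trend leave these log2 differences as they are, since no tested member probe set lay at the limit. Direction was fixed in advance under those settings, and only the adjusted p could move. The 7 values of denervated minus control that reversed were all Canx. The 7 were rc_AI010725_at with quantile normalization (-0.039) and sets of arrays as a block (-0.0201), and rc_AI235707_g_at with median scaling (0.034), array weights (0.030), without denervated 1, contralateral 1 and sham (0.12), without denervated 2 and 5 (0.022) and with the sets as a block (0.021). Leaving out each gland, Canx at rc_AI010725_at ran from -0.29 to 0.21 against control and from -0.54 to 0.10 against contralateral glands, rc_AI010725_g_at from -0.16 to 0.54 and rc_AI235707_g_at from -0.46 to 0.056 against control. Why these reversed was not tested.

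Member counts at an unadjusted p under 0.05 were 5 and 8 with 1 probe set per gene (9 genes tested), for control and contralateral glands, against 12 and 16. Against contralateral glands the count was 10 without a variance trend and 8 without denervated 2 and 5, and against control glands 3 without those 2. Leaving out each gland it was 8 to 14 against control and 5 to 15 against contralateral glands. Probe sets past an adjusted p of 0.05 over the whole array numbered 0 in both comparisons, 1 against contralateral glands without a variance trend and with array weights, 1 against control glands with the sets as a block, and 0 to 70 against control leaving out each gland (70 without denervated 1).

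Medians over members against control glands were -0.89 to -0.58 and against contralateral glands -1.10 to -0.69 leaving out each gland, and -1.24 against contralateral glands without denervated 1, contralateral 1 and sham. Contralateral minus unoperated and sham was 0.85 with median scaling, 1.09 without those 3 glands and 0.13 to 0.88 leaving out each gland, and denervated minus unoperated and sham was -0.19 with median scaling and -0.85 to -0.31. Median scaling moved the median of all probe sets from -0.08 to 0.04 against control glands, from -0.17 to 0.14 for denervated and from -0.15 to 0.18 for contralateral minus unoperated and sham. Relative to the median of all probe sets, the members' median in denervated minus control was -0.59 as deposited, -0.59 with median scaling and -0.65 with quantile normalization. Median scaling also moved the share of all probe sets lower in denervated than in control glands from 55.4% to 46.9%.

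Gland numbers 1 to 3 are shared by denervated and contralateral glands. The labels do not say that the numbers mark animals, so they were not taken to pair the glands. Deviations from the group means correlated by 0.49, 0.04 and 0.16 for same-numbered glands, and by -0.31 to 0.18 for differently numbered ones. The same-numbered value was the highest for denervated 1 and 2, and for denervated 3 the highest was with contralateral 2. Whether the glands are paired was not settled by these values. With the numbers as a replicate block the members' medians were -0.67 against control and -0.78 against contralateral glands, with 13 and 11 at an unadjusted p under 0.05. Signal near the lower limit restricted 1 of 22 member probe sets.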
